A study of Homo sapiens with 8 samples.

Results

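CTCF peaks that were called in replicate 1 and not in replicate 2 were examined in the human osteosarcoma line U-2 OS. These peaks were selected on measured values: each is an interval of the replicate 1 list on chromosomes 1 to 22 or X that shared no base pair with any interval of the replicate 2 list. The rule gave 8557 of 42493 replicate 1 peaks, a share of 20.1%. The remaining 33936 replicate 1 peaks overlapped replicate 2 and are called shared peaks here. In the other direction, 1534 of 35765 replicate 2 peaks had no counterpart in replicate 1.

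Chromatin was fixed for 6 min with 1% formaldehyde and immunoprecipitated for sequencing (ChIP-seq). Per the labels, both CTCF replicates came from clone C32, a single knock-in clone that carries a FLAG-Halo tag on the endogenous CTCF protein, and were recovered with antibody ab128873. The series' own design text instead names wild-type cells for CTCF. The labels were followed. The Sp1 lists came from a V5-Halo-SP1 knock-in line, with 1 library for antibody MA5-32497 (antibody 1) and 1 for PA5-29165 (antibody 2), and a rabbit IgG library from that line served as the control list. No genotype or treatment varied between the CTCF replicates, and the labels do not say whether they were separate cultures. The peak lists carry no read numbers. The study reports read numbers for its libraries, but these were not used here, so depth was not compared between the lists. Intervals given for shares are 95% Wilson intervals and those for differences 95% Newcombe intervals. They cover counting error only, because peaks of a single library are not replicates, and no p-value was computed.

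CTCF is a DNA-binding protein whose array of zinc fingers recognises a long, GC-rich sequence. It halts cohesin as cohesin extrudes chromatin loops, and many of its sites lie at loop anchors and domain borders that are occupied in most cell types. Sp1 binds GC boxes, short GC-rich elements common in promoters of widely expressed genes. Promoters in CpG islands are therefore places where both kinds of sequence can occur close together.

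A 20-base CTCF matrix was learned from the strongest shared peaks of the odd-numbered chromosomes, and its most frequent bases spell GTGGCCACCAGGGGGCGCCA. The strongest replicate 1 only peaks each held a match to it within 50 bp of the summit. Their matches are shown because these sites had high enrichment in replicate 1 and no peak in replicate 2. Capitals mark the 20 bases matched, flanked by 5 bases on each side, 5′ to 3′ on the strand of the match, from hg38.
VPS37D, chr7:73667809-73667838, minus strand: accgcTCCGCCGCCAGGGGGCGCCCctccc
RRBP1, chr20:17681291-17681320, plus strand: ccggcCCCGCCGCCAGGGGGAGCAGggagc
CARM1, chr19:10871444-10871473, plus strand: ccaggACGGCCGGCAGAGGGCGCTGcgcca
OTP, chr5:77645654-77645683, plus strand: cccgcCCGGCCCCCAGGGGGCGCAGcgccc
CYB561, chr17:63446099-63446128, plus strand: agtgcGCGGCCGCAAGGGGCAGGTGcgagg
SPIN1, chr9:88388677-88388706, minus strand: gcggcCCAGCCGGCAGGGGGCGCTAtgcgg
PRKCQ-AS1, chr10:6580356-6580385, plus strand: aggcgGTGCCCGCCAGGGGGCGCTCgccag
ADRA1B, chr5:159916412-159916441, minus strand: ctccgCGCGGCACTAGGGGGCAATGcgggt
NOM1, chr7:156949635-156949664, plus strand: gccctCCGGCCAGCAGGGGGCGCCGcccgc
PPP1CA, chr11:67401933-67401962, minus strand: ccagcGGGGGCGCTAGAGGGCGGGGgactg
CHD9, chr16:53130578-53130607, plus strand: cccgcGCTCCGGCCAGAGGGCGCCCggccc

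These 11 sites shared between 11 bases (ADRA1B) and 16 bases (PRKCQ-AS1 and NOM1) of the 20 most frequent bases. Matrix scores, in log2 odds, ran from 12 at CHD9 to 26.7 at NOM1, above the threshold of 11.2 for a match. The flanking bases were mostly G or C, and the windows reaching 50 bp to each side of the summit are shown for SPIN1 and, as a contrast, for TBRG4, a gene of mitochondrial RNA processing whose replicate 1 only peak overlapped both Sp1 lists and held no match. Capitals mark the CTCF match in the first, and the TBRG4 window has no capitals because it held neither a match nor a GC box.
SPIN1, chr9:88388664-88388764, minus strand: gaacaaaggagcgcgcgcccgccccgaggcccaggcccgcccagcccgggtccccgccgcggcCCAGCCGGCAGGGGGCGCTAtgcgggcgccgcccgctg
TBRG4, chr7:45112059-45112159, plus strand: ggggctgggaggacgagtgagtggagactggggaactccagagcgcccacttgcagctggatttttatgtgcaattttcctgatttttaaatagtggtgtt
G and C made up 84.2% of the SPIN1 window and 49.5% of the TBRG4 window. TBRG4 is not typical in this, as replicate 1 only peaks with Sp1 had a median GC content of 68.3%. Its nearest Sp1 summit of antibody 1 was 370 bp from the CTCF summit, outside the window shown.

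Replicate 1 only peaks were weak and narrow. Their fold enrichment over the control, as given by the authors' peak caller, had a median of 5.75, with 90% of peaks between 3.23 and 11.0 and extremes of 1.71 and 79.8. Shared peaks had a median of 41.7 in the same library. The median −log10 q was 10.4 against 225. Median width was 274 bp against 689 bp, and replicate 1 only peaks ranged from 195 to 1396 bp. These values enter the calling of an interval, and so the rule, and are given as a description. When all replicate 1 peaks were split into 4 equal bins of fold enrichment, the weakest bin held 7548 of the replicate 1 only peaks, the second weakest 1003, the next 5 and the strongest 1. When the replicate 1 list was shortened to the length of the replicate 2 list by −log10 p, 3009 peaks met the rule. Width followed fold enrichment and was also lower within bins of fold. At a fold of 6 to 8 the median was 286 bp for replicate 1 only and 321 bp for shared peaks. At 10 to 15 it was 375 and 424 bp. Folds were not matched inside a bin. The share of replicate 1 only peaks fell from 62.9% at 6 to 8 to 14.5% at 10 to 15. Peaks seen in replicate 2 alone had a median fold of 3.08 and a median width of 234 bp.

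**Figure D1:**
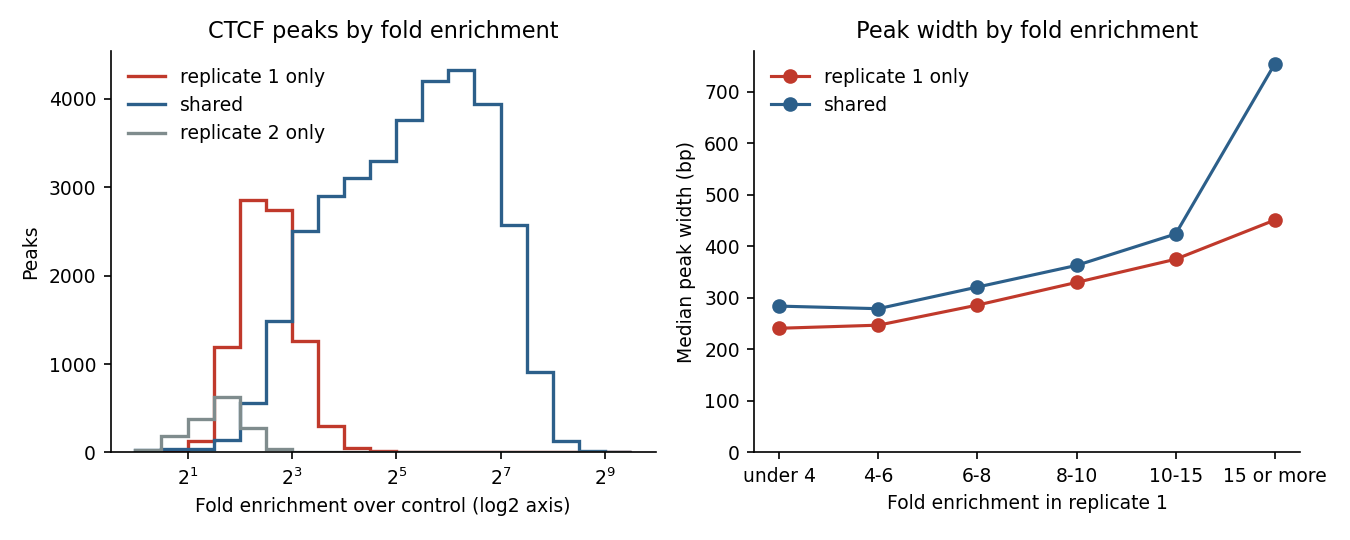
The left panel shows numbers of peaks by fold enrichment over the control (log2 axis) for replicate 1 only, shared and replicate 2 only peaks, with replicate 2 only peaks placed by their fold in replicate 2. The right panel shows median width in bp by fold enrichment in replicate 1, where replicate 1 only peaks are narrower than shared peaks in each of the 6 bins, from 241 against 284 bp below a fold of 4 to 451 against 754 bp at 15 or more. The last bin has no upper limit, and folds inside a bin were not matched.

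Most replicate 1 only peaks lay more than 1 kb from any replicate 2 peak. The gap to the nearest had a median of 19465 bp, and the middle 50% of gaps ran from 6033 to 48543 bp. Only 586 (6.85%) were within 1 kb, and 859 (10.0%) were more than 100 kb away. No reference spacing, such as that of other genome positions, was computed for these gaps. At the edge of the rule, a peak in an intron of BASP1 with a fold of 3.12 abutted a replicate 2 peak with a gap of 0 bp, a peak in TMEM51-AS1 with a fold of 7.19 was 16 bp away and a peak near the ZDHHC22 start with a fold of 4.25 was 25 bp away. Just outside the rule, peaks at NEAT1, ZNF608 and OSBPL10 with folds of 4.85, 3.40 and 3.18 shared 49, 72 and 79 bp with replicate 2.

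Replicate 1 only peaks lay at promoters more often than shared peaks did, but not at every fold enrichment. A GENCODE start site was within 1 kb of the summit in 29.2% (28.3 to 30.2%) of replicate 1 only peaks, 20.8% (20.3 to 21.2%) of shared peaks and 13.7% (12.1 to 15.5%) of replicate 2 only peaks, against 22.5% of all replicate 1 peaks. A limit of 5 kb raised the share of replicate 1 only peaks to 49.8%. The difference to shared peaks was 8.44 percentage points (7.39 to 9.50). In the weakest 25% of replicate 1 peaks it was 2.37 points (0.471 to 4.23) and in the second weakest 25% 6.68 points (3.91 to 9.62). Within these wide bins replicate 1 only peaks still had the lower folds. In narrower bins, chosen after seeing the data, the difference was 12.3 points (5.77 to 18.2) below a fold of 4, -0.176 points (-3.93 to 3.40) at 4 to 6, -3.52 points (-6.54 to -0.559) at 6 to 8 and 1.15 points (-2.19 to 4.56) at 8 to 10. It was 4.06 points (0.431 to 8.00) at 10 to 15 and 42.4 points (31.9 to 51.8) at 15 or more, a bin without an upper limit in which folds were not matched. The higher promoter share was thus found at the lowest and the highest folds, and the sign was the opposite at 6 to 8. It was 2.05 points (1.08 to 3.07), among summits with a GC content under 60%, a comparison chosen after seeing the data.

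Relative to exons, 51% of replicate 1 only summits fell in introns and 32.1% between genes, against 50.3% and 37.5% of shared summits. Coding exons held 4.42% (4.00 to 4.87%) and untranslated exons 6.70% (6.19 to 7.25%), against 2.65% and 4.23% of shared summits. The 2 kinds of unmatched peak were unlike each other: 62.9% (60.5 to 65.3%) of replicate 2 only summits were intergenic, and 48.1% of them were more than 50 kb from a start site, against 9.52% of replicate 1 only summits.

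**Figure D2:**
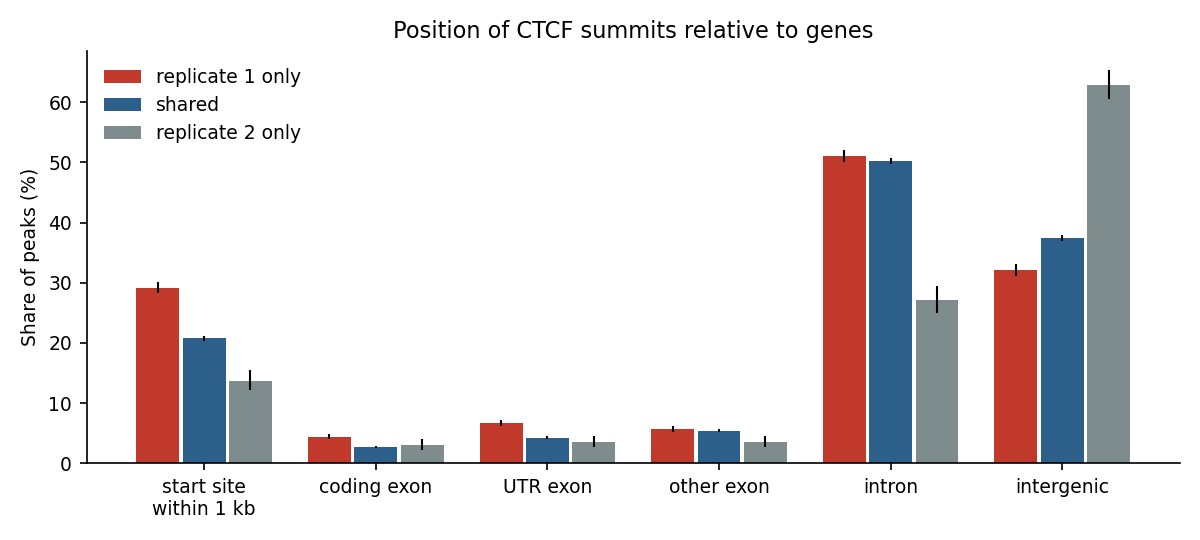
Bars show the share of summits (%) within 1 kb of an annotated start site and, separately, in each gene feature, with 95% Wilson intervals, for replicate 1 only, shared and replicate 2 only CTCF peaks. Replicate 1 only peaks have the largest share near start sites (29.2%), and replicate 2 only peaks the largest intergenic share (62.9%).

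Fewer than 50% of the replicate 1 only peaks carried a recognisable CTCF sequence. A matrix match within 50 bp of the summit was found in 46.3% (45.2 to 47.3%) of replicate 1 only peaks, against 74.0% of all replicate 1 peaks and 14.7% (13.0 to 16.6%) of replicate 2 only peaks. The threshold was set so that 1% of windows lying 1 kb from shared summits on the odd chromosomes matched, and 1.02% of windows at that distance from replicate 1 only summits did. Base composition mattered for this background: 7.62% (5.71 to 10.1%) of the neighbouring windows with a GC content of 70% or more matched, whereas 42.0% (39.1 to 44.9%) of replicate 1 only windows of that composition did. On the even-numbered chromosomes and X, which the matrix had not been learned from, 46.3% of replicate 1 only and 80.4% of shared peaks matched, a difference of -34.1 points (-35.7 to -32.5). Much of this difference went with fold enrichment. In the weakest 25% of peaks it was -9.81 points (-12.7 to -6.87), and in narrower bins of fold on the same chromosomes it was 6.48 points (-2.14 to 13.3) below 4, -6.41 points (-11.9 to -0.850) at 4 to 6, -4.52 points (-9.20 to 0.215) at 6 to 8 and -8.83 points (-14.3 to -3.31) at 8 to 10. At 10 to 15 it was -0.564 points (-6.79 to 5.29) and at 15 or more -9.55 points (-25.1 to 1.16), so the interval lay clear of 0 in 2 of the 6 bins. A stricter threshold, passed by 0.1% of neighbouring windows, left 15.3% of replicate 1 only peaks, and 4.71% held the exact CTCF core.

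Matches were sought only within 50 bp of the summit, which limits their offset from it. The median offset was 14.0 bp in replicate 1 only peaks and 12 bp in shared peaks of the even chromosomes and X, against 19.5 bp from the centre for the 168 matches in windows beside replicate 1 only peaks. Scores were lower in replicate 1 only peaks, with a median of 14.5 against 16.8. Across replicate 1 only peaks the share with a match rose with fold enrichment, from 24.5% below a fold of 4 through 44.5%, 52.8%, 55.0% and 62.9% to 75% at 15 or more. Promoter peaks matched less often than the others, in 36.1% against 50.4%, a difference of -14.3 points (-16.6 to -12).

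**Figure D3:**
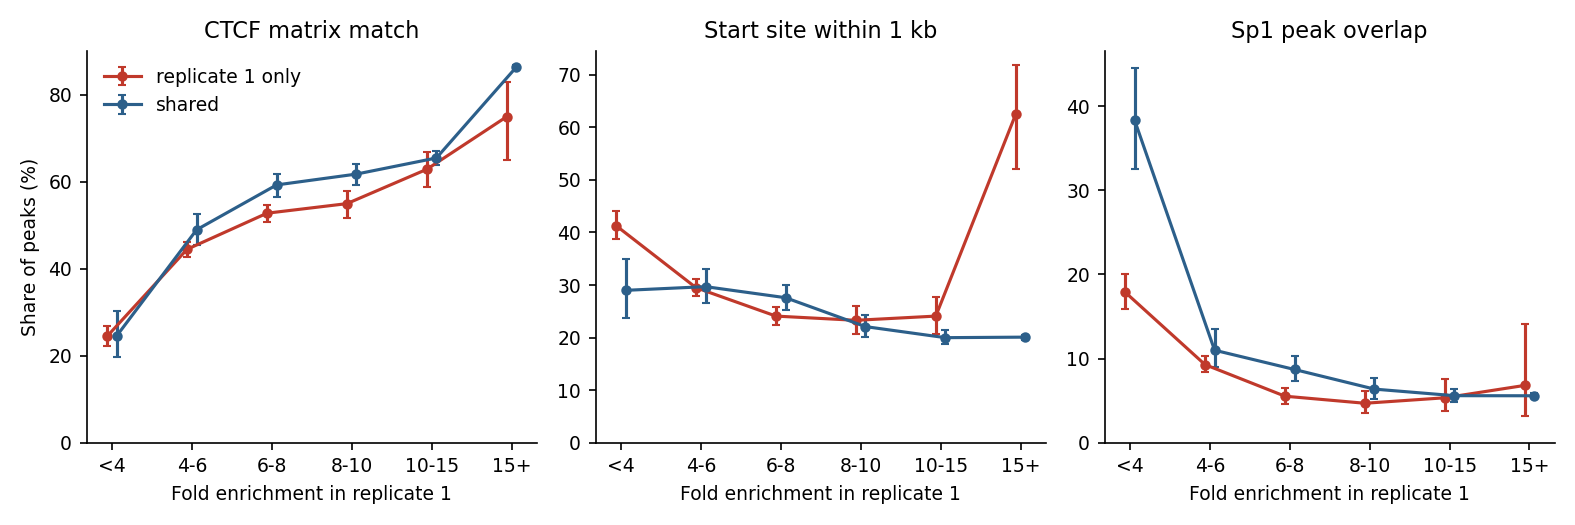
Points show the share of peaks (%) with a CTCF matrix match, with a start site within 1 kb and with an overlapping Sp1 peak of either antibody, by fold enrichment in replicate 1, with 95% Wilson intervals. Shared peaks include the 5000 from which the matrix was learned; the match share rises with fold in both sets, whereas the promoter share of replicate 1 only peaks is 41.3% below a fold of 4, between 23.3% and 29.5% in the 4 middle bins and 62.5% at 15 or more.

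The strongest replicate 1 only peaks stood apart in base composition. Summit windows of the 88 with a fold of 15 or more had a median GC content of 75.2%, against 52.5% in the 26834 shared peaks with a fold of 15 or more. A GC content of 70% or more was found in 54 of the 88 (61.4%, 50.9 to 70.9%) and in 9.09% of those shared peaks. Among the 88, 55 lay within 1 kb of a start site, and 46 of these were among the 54 GC-rich ones. This limit of fold was chosen after the values had been seen, so the contrast is a description. Folds above the limit were not matched: they reached 79.8 in replicate 1 only peaks and 664 in shared peaks. A GC box, GGGCGG on either strand, was present in 40.9% of the 88, against 7.90% of the shared peaks with a fold of 15 or more.

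All 12 of the strongest peaks had a GC content of 70% or more and a matrix match, and 11 lay within 1 kb of a start site. The strongest was at the start of VPS37D, which encodes a subunit of the ESCRT-I membrane sorting complex, with a fold of 79.8 and a −log10 q of 508. The nearest replicate 2 peak was 33398 bp away. Next came an intronic peak of RRBP1, a ribosome-binding protein of the endoplasmic reticulum, with a fold of 51.2, and a peak 119 bp from the start of CARM1, an arginine methyltransferase and transcriptional coactivator, with a fold of 40.5. The peak nearest to OTP, a homeobox gene of the developing hypothalamus, had a fold of 33.9 and was the only one of the 12 outside a promoter, 6936 bp from the start site. CYB561, an electron carrier of secretory vesicle membranes, had a peak with a fold of 29.5, and the uncharacterised gene ENSG00000284614 one with 28.1. Folds were 26.6 at SPIN1, a reader of histone methylation, 26.0 at the antisense RNA PRKCQ-AS1, 25.0 at the adrenergic receptor gene ADRA1B and 24.3 at the nucleolar protein gene NOM1. PPP1CA, which encodes a catalytic subunit of protein phosphatase 1, also had a fold of 24.3, and this was the only one of the 12 that overlapped an Sp1 peak, one of antibody 1 with a fold of 8.06. The last, at the chromatin remodeller gene CHD9, had a fold of 23.5.

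**Figure D4:**
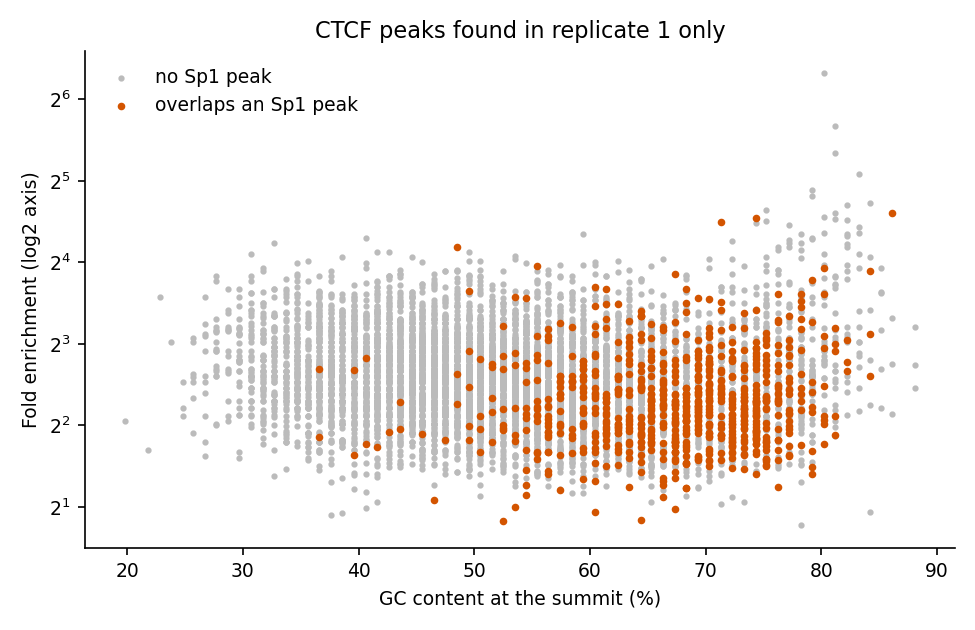
Each point is 1 of the 8557 replicate 1 only peaks, placed by the GC content of the window within 50 bp of its summit (%) and its fold enrichment (log2 axis), and coloured by overlap with an Sp1 peak of either antibody. The highest folds lie at a GC content of 70% or more, and peaks that overlap Sp1 are GC-rich with mostly low folds.

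Replicate 2 also gave lower enrichment at GC-rich sites that both replicates called. Across the 33743 shared peaks with summits within 100 bp, the median log2 fold of replicate 2 minus that of replicate 1 was -0.89. It lay between -0.90 and -0.86 in each bin of GC content below 70%, and was -1.08 at 70 to 80% (2533 peaks) and -1.48 at 80% or more (333 peaks). The middle 50% of differences in the last bin ran from -1.74 to -1.22, against -1.14 to -0.59 at 50 to 60%. Among the second weakest 25% of replicate 1 peaks, the share found in replicate 1 only was between 7.56% and 9.95% in the bins below 70%, 18.3% (15.5 to 21.4%) at 70 to 80% and 37.5% (29.6 to 46.1%) at 80% or more. Over all strengths it did not rise steadily. It was 23.3% (19.3 to 27.8%) below 30%, 18.2% at both 30 to 40% and 40 to 50%, and 19.7% at 50 to 60%. Above that it was 21.5% at 60 to 70%, 27.1% at 70 to 80% and 26.3% (22.6 to 30.5%) at 80% or more. Peaks found in replicate 2 alone had a median GC content of 44.6%, against 54.5% in those found in replicate 1 alone. The part of base composition in the difference between the replicates was not tested.

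**Figure D5:**
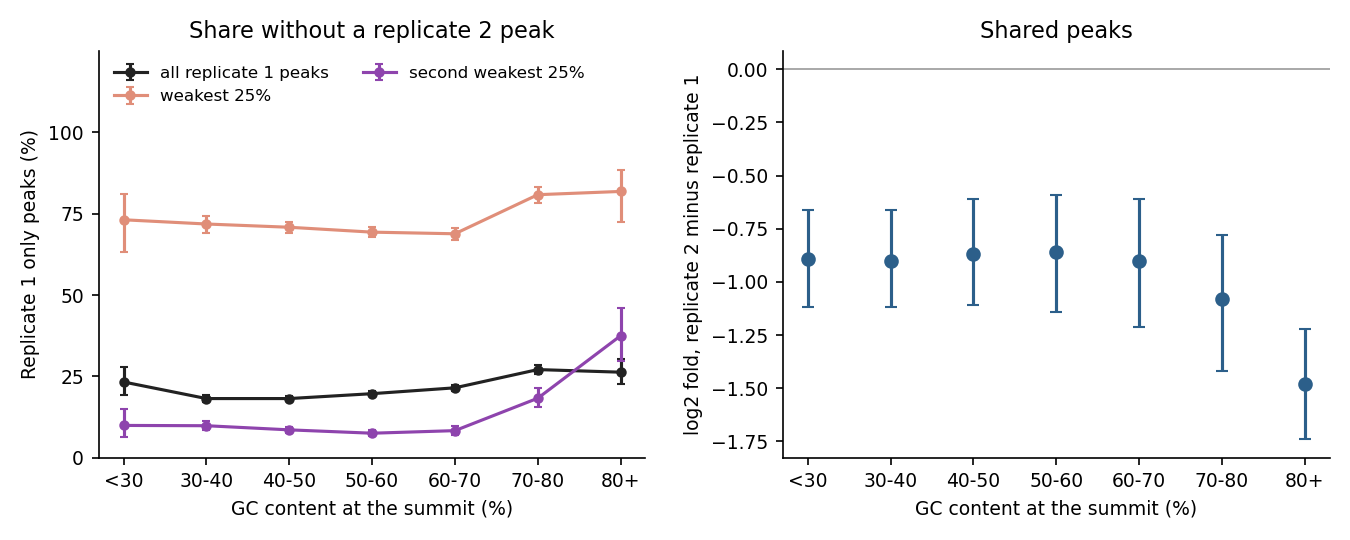
The left panel shows the share of replicate 1 peaks found in replicate 1 only (%) by GC content within 50 bp of the summit, for all peaks and for the weakest and second weakest 25%, with 95% Wilson intervals. The right panel shows the median log2 fold of replicate 2 minus replicate 1 at shared peaks, with bars for the middle 50%, which falls from -0.86 at a GC content of 50 to 60% to -1.48 at 80% or more.

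Sp1 peaks overlapped a minority of replicate 1 only peaks. Antibody 1 overlapped 674 (7.88%, 7.32 to 8.47%) and antibody 2 overlapped 404 (4.72%, 4.29 to 5.19%), against 5.90% and 3.63% of all replicate 1 peaks. Either antibody overlapped 756 (8.83%, background 6.65%), and both overlapped 322 (3.76%, background 2.88%). With summits required to lie within 100 bp the share with either was 2.98%, and with a reciprocal overlap of 50% it was 3.45%. Antibody 1 alone overlapped 352 and antibody 2 alone 82. The antibody 1 list was the longer, with 8602 peaks against 5882. CTCF and Sp1 were assayed in different lines and sequenced on different instruments, so target and experiment cannot be told apart.

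The share with either antibody was higher than in shared peaks by 2.73 points (2.09 to 3.40), but the sign depended on strength. Within bins of fold it was -20.4 points (-26.9 to -14.2) below 4, -1.76 points (-4.42 to 0.566) at 4 to 6, -3.17 points (-5.03 to -1.43) at 6 to 8, -1.68 points (-3.46 to 0.202) at 8 to 10, -0.250 points (-2.03 to 2.05) at 10 to 15 and 1.23 points (-2.44 to 8.50) at 15 or more. Within the weakest 25% it was lower, at 9.26% against 11.2%, a difference of -1.92 points (-3.24 to -0.653), and within the second weakest 25% the difference was 0.825 points (-0.522 to 2.49). Among summits with a GC content under 60% it was 0.133 points (-0.279 to 0.597). Split by position, it was 3.64 points (1.67 to 5.66) at promoters, with 26.7% against 23.1%, and -0.199 points (-0.514 to 0.165) elsewhere, with 1.45% against 1.65%. Replicate 2 only peaks overlapped Sp1 in 9.06%, a difference of -0.226 points (-1.87 to 1.25) from replicate 1 only peaks. Some Sp1 overlaps lay where the IgG control also gave a peak. This held for 36 of the 2071 shared peaks with Sp1 and 1 of the 756 replicate 1 only peaks with Sp1. In the weakest 25%, 34 of 3069 shared and 2 of 7548 replicate 1 only peaks overlapped IgG. The Sp1 differences were not recomputed without these peaks.

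The 756 replicate 1 only peaks with Sp1 differed from the other 7801, and for most measures shared peaks with and without Sp1 differed in a like way. They lay at promoters in 88.4% of cases against 23.5%, where the shares in shared peaks were 78.6% and 17.0%. Their median GC content was 68.3% against 52.5%, and that of shared peaks 66.3% against 51.5%. A CTCF match was found in 23.9% against 48.4%, a difference of -24.5 points (-27.6 to -21.1), whereas shared peaks held a match in 65.6% with Sp1 and 81.9% without. A GC box was found in 33.9% against 8.33%, a difference of 25.5 points (22.2 to 29.0), and in shared peaks in 28.1% against 6.44%. Over all replicate 1 only peaks the GC box share was 10.6% (9.95 to 11.3%), against 8.33% of all replicate 1 peaks and 3.96% of windows 1 kb away. The difference to shared peaks was 2.83 points (2.13 to 3.55), but 0.0508 points (-0.362 to 0.514) below a GC content of 60% and -0.295 points (-0.854 to 0.311) off promoters. The CTCF and Sp1 summits were seldom at the same place, with a median distance of 189 bp for antibody 1 and 166 bp for antibody 2, and 28.8% and 29.7% of the pairs within 100 bp. In shared peaks the median distances were 203 and 188 bp.

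Among all replicate 1 only peaks with Sp1, 23.9% held a CTCF match. Of the 10 strongest replicate 1 only peaks that overlapped both Sp1 antibodies, 8 held no CTCF match. The strongest, 187 bp from the start of MARS1, the methionyl-tRNA synthetase gene, had a CTCF fold of 18.2 and Sp1 folds of 4.43 and 9.42 with antibodies 1 and 2. Its window held no GC box. PANK2, whose product starts coenzyme A synthesis, had a CTCF fold of 15.5, Sp1 folds of 17.2 and 7.27 and a match with a score of 14.2. The other match was at ENSG00000275765 in the first part of ATOX1, a copper chaperone gene, where the CTCF fold was 11.2 and the Sp1 folds were 16.8 and 13.2. CTCF folds were 14.5 at HYAL3, 13.0 at C14orf93, 12.7 at METTL2B, 12.5 at TBRG4, 12.2 at VCP, 11.9 at GBE1 and 11.4 at MERTK. The best matrix score at C14orf93 was 11.0, just below the threshold of 11.2 for a match. VCP is an ATPase that extracts ubiquitinated proteins, GBE1 the glycogen branching enzyme and MERTK a receptor for the clearance of dying cells. Overlap was counted over whole intervals, and at VCP and GBE1 the nearest Sp1 summits of antibody 1 were 625 and 746 bp from the CTCF summit.

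Replicate 1 only peaks were found on each chromosome examined. They made up between 18.5% of replicate 1 peaks on chromosome 19 and 24.9% (21.3 to 28.8%) on chromosome 21. Such a peak was found inside or up to 5 kb upstream of 4665 of 19970 protein-coding genes (23.4%), and 1444 genes (7.23%) had one and no shared peak. A run was defined as neighbouring replicate 1 only peaks within 50 kb of each other with no shared peak between them. By this rule 1916 (22.4%) fell in 881 runs. The other 6641 were in no run, though some may have had such a neighbour beyond a shared peak. The longest run, 7 peaks at chr19:36270840-36293826 in ENSG00000267053 and the overlapping LINC00665, had folds of 2.34 to 4.52 and no CTCF match, and 1 of the 7 overlapped an IgG peak. The next, 6 peaks at chr19:37263080-37297687, were all of the replicate 1 peaks of ENSG00000267605, and 1 held a match. Runs of 5 lay at chr21:8439571-8446974, at ZCCHC7 and LINC01627 on chromosome 9 and at GAS6 on chromosome 13.

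Genes with the most replicate 1 only peaks were long genes or noncoding loci. ENSG00000280441 on the short arm of chromosome 21, which carries the repeated ribosomal RNA genes, had 10 of its 20 replicate 1 peaks in this set, with folds of 2.00 to 6.20. Reads from repeated copies can be placed at more than 1 locus, so these values are uncertain. The same limit may hold elsewhere in the set, because repeats were not compared. On chromosome 1 a series of replicate 1 only peaks lay between genes, with the distant LINC01691 start site as the nearest. Their folds were all below the median of 5.75, as were those of peaks near RNA5S2 and RNA5S14. Counts by gene leave out peaks that lie far from genes. RBFOX1, a splicing factor gene of 2474 kb, had 9 of 32, with folds of 3.47 to 9.84 and matches in 5. GSE1 had 8 of 27 and KAZN 8 of 28. GRID1, a glutamate receptor family gene, had 7 of 12, the noncoding LINC02934 had 7 of 15 and AFF3, a transcriptional elongation factor gene, had 6 of 10. Over all replicate 1 peaks the share was 20.1%. These genes were picked for their number of replicate 1 only peaks, which favours a higher share, so the counts are a description.

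Among genes of CTCF and cohesin, the ring that CTCF halts on DNA, 3 of 15 (20.0%) had a replicate 1 only peak and 11 had a shared peak. Over all protein-coding genes these shares were 23.4% and 54.9%. CTCF itself was one of the 3. The peak was 201 bp from its start site at chr16:67562669-67563457, in an intron of the gene, with a fold of 17.7, a −log10 q of 71.6, a matrix match and a GC content of 76.2%, and it was the sole replicate 1 peak of CTCF. The start of RAD21, the kleisin subunit of cohesin, had a weaker peak with a fold of 5.78. STAG1, another cohesin subunit, had one in an intron with 4.02.

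In the p53 and RB pathway 5 of 21 genes (23.8%) had a replicate 1 only peak, near the 23.4% of all protein-coding genes, and 13 had a shared peak. E2F1, a transcription factor that RB restrains, had a peak with a fold of 10.9, a match and an antibody 1 overlap 272 bp from its start, and no shared peak. E2F2 had 2 promoter peaks with folds of 4.16 and 4.75 and no match. RBL1, an RB relative, had one at its promoter with 3.30 that overlapped both Sp1 antibodies, CCND2, a cyclin D gene, had promoter peaks with 5.38 and 4.04, and RB1 an intronic peak with 9.55. Of bone lineage genes 4 of 20 (20.0%) had a replicate 1 only peak and 15 had a shared peak. Among the 4 were SP7, an osteoblast transcription factor gene, with a fold of 8.80 in an untranslated exon, the alkaline phosphatase gene ALPL with 4.54 and BMP4, a bone morphogenetic protein gene, with 3.85 at its start.

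Imprinted genes had a replicate 1 only peak in 5 of 20 cases (25.0%, against 23.4% of all protein-coding genes), and 15 of the 20 had a shared peak. CDKN1C, a growth inhibitor expressed from the maternal copy, had a promoter peak with a fold of 18.8 and a GC content of 77.2% as well as a second with 2.70. PLAGL1 had a promoter peak with 8.78, SNRPN an intronic peak with 4.34, and a single peak with 4.90 lay by both PEG10 and SGCE. Of 39 HOX genes, which pattern the body axis, 11 (28.2%) had a replicate 1 only peak and 23 had a shared peak. Peaks were counted for each neighbouring gene they reached, so the 11 genes stand for fewer peaks. A single peak counted for each pair of HOXA3 and HOXA4, HOXB3 and HOXB6, HOXC4 and HOXC6, and HOXD10 and HOXD11. The strongest replicate 1 only peak was at the start of HOXA4 with 13.2, followed by one at HOXD11 with 9.46 and one at HOXA9 with 5.42. Weaker promoter peaks lay at HOXB6 with 4.25, HOXD9 with 3.76, HOXA13 with 3.65 and HOXC4 with 3.35, all without a match.
The clustered protocadherin genes, neuronal adhesion genes whose promoters are chosen through CTCF, had a replicate 1 only peak in 33 of 53 cases and a shared peak in 48. The 33 came from 4 replicate 1 only peaks, with folds of 6.95 to 9.46 and 1 match, because the genes overlap each other. Of these peaks 3 lay near a start site, that of PCDHGA11 with 9.46, PCDHGB6 with 9.26 and PCDHA13 with 8.68, of which PCDHA13 held the match. By comparison 23.4% of all protein-coding genes had a replicate 1 only peak and 54.9% had a shared peak. Shares with a replicate 1 only peak in the lists other than the protocadherins, 20.0% to 28.2%, were near that share.

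The IgG list held 90 peaks on these chromosomes and overlapped 2 replicate 1 only peaks (0.0234%), those in introns of ACTN2 and of ENSG00000267053, with folds of 2.56 and 3.07. It overlapped 37 shared peaks (0.109%) and 19 replicate 2 only peaks (1.24%).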

How the data were processed

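ChIP-seq peak lists of 5 of the 8 libraries in the series were used. Per the submitters' processing notes and the methods, reads were trimmed by the authors (cutadapt 2.6), mapped to the hg38 assembly (Bowtie2, 2.4.5 in the notes), stripped of duplicates (SAMtools) and used to call peaks for each library (MACS2 2.2.7.1). The deposited values of each peak are a linear ratio (fold enrichment over the control), the −log10 p-value and the −log10 q-value, and each list ended near a q-value of 0.05. List lengths depend on depth, which the lists do not give.

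Overlap meant at least 1 shared bp. Start sites and features came from GENCODE release 44, with priority to coding exons, then untranslated exons, other exons and introns. The CTCF matrix (20 bases) was built in 3 rounds from the 5000 strongest shared peaks of odd chromosomes, and windows reaching 50 bp to each side of summits were scored on both strands. GC content was taken over the same windows. The genome copy used carries no repeat masking, so the planned comparison of repeats was not run. Overlap and matrix search were tested on simulated data and against bedtools (2.31.1), with Python (3.11.15), numpy (2.4.6), pandas (2.3.3) and pysam (0.24.0).

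Named peaks were the 12 strongest, the 10 strongest with both Sp1 antibodies, the 10 genes with most peaks, peaks of listed genes within 1 kb of their start, the 3 nearest each side of the rule and the 3 longest runs. Weaker peaks of listed genes farther from their start were named after their values were seen. The members and gene lists were chosen with earlier results of these data known. GC content, bins of fold, promoter position within the Sp1 comparison and the fold limit of 15 were added after seeing the data. A further gene in the lists is not reported here.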

Additional observations from a re-analysis of the deposited data

Results flagged for a closer look

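A signal outside the comparisons was seen on contigs other than chromosomes 1 to 22 and X. Of 272 replicate 1 peaks there, 83 (30.5%, 25.3 to 36.2%) shared no base pair with a replicate 2 peak. Their median fold was 3.33 and the highest 26.3, and 0 of them overlapped any of the 16 IgG peaks on those contigs.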

How the results depend on the processing

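The number of replicate 1 only peaks was between 8235 and 8750 under 5 of 6 alternatives, and 3009 when replicate 1 was cut to the length of the replicate 2 list. All 12 of the strongest peaks were kept under each of the 6. The promoter share was 23% within 500 bp, 49.8% within 5 kb and 23.8% for protein-coding genes. The CTCF match share was 38.9% within 100 bp with a threshold reset for that window, 15.3% at a 0.1% threshold, 4.71% for the exact core and 47.7% at a −log10 q of at least 3. The Sp1 share was 2.98% for summits within 100 bp, 3.45% for a reciprocal overlap of 50% and 3.76% for both antibodies.

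The Sp1 difference to shared peaks changed sign in the weakest 25% (-1.92 points) and, with an interval that reached 0, off promoters (-0.199 points). Its interval also reached 0 in the second weakest 25% (0.825 points) and below a GC content of 60% (0.133 points). Peaks that overlapped IgG were kept in each of these comparisons, 34 of them shared and 2 replicate 1 only in the weakest 25%. Bins of fold were added after seeing the data. There the Sp1 difference was -20.4, -1.76, -3.17, -1.68, -0.250 and 1.23 points from the lowest to the highest fold, with intervals clear of 0 below 4 and at 6 to 8. The promoter difference was -0.176 points at 4 to 6, -3.52 at 6 to 8 and 1.15 at 8 to 10, with an interval clear of 0 at 6 to 8 alone of these. The CTCF match difference was 6.48 points below 4, -4.52 at 6 to 8, -0.564 at 10 to 15 and -9.55 at 15 or more, with intervals that reached 0. So the promoter and match differences kept their sign in both wide bins of strength and below a GC content of 60%, but not in each bin of fold. The cause was not tested. The share of GC-rich summits at a fold of 15 or more was 61.4% over 100 bp on each side and 51.1% when summits had to differ by more than 100 bp, and the log2 ratio at a GC content of 80% or more was -1.43 over the wider window and -1.52 in the stronger 50% of peaks. No paired analysis was possible because the comparisons are between peaks of single lists, and no test across samples was made.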
